A study of Mus musculus with 8 samples.

Results

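Alveolar type 2 (AT2) cells are the surfactant-producing cells of the alveolus, and the cells described here are those that the authors of the study had annotated as AT2 in lungs of cigarette smoke (CS)-exposed and room air (RA)-exposed mice. Of the 41106 cells in the deposited data, 1881 carried this annotation, 705 from 4 CS mice and 1176 from 4 RA mice. All mice were C57BL/6 animals that carried Sftpc-CreERT2 with the mTmG reporter. In these mice, tamoxifen makes the Cre active in cells that express Sftpc, which from then on carry eGFP in place of tdTomato. All received tamoxifen as young adults, and littermates were then assigned at random to smoke of 3R4F research cigarettes for 10 months or to room air. Both groups carried the same transgenes. Lungs were digested with enzymes, the suspension was recombined after separation on CD45 to hold mostly CD45- cells, and RNA was measured with 10x Genomics 3' v3 chemistry. Each mouse was 1 library, and each of 4 sequencing lanes held 1 CS and 1 RA mouse.

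AT2 cells make, store and recycle pulmonary surfactant, a mix of phospholipids and surfactant proteins that keeps alveoli open. Lipid and protein are packed in lamellar bodies, lysosome-related organelles of which LAMP3 is a membrane protein. AT2 cells also serve as progenitors of alveolar type 1 (AT1) cells, the flat cells of gas exchange, and take part in airspace defence. In mouse lungs they carry both classes of the major histocompatibility complex (MHC). Cigarette smoke is an established cause of emphysema, in which alveolar walls are lost.

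The number of AT2 cells was 116, 196, 228 and 165 in CS mice C2, C5, D2 and D5, and 335, 559, 211 and 71 in RA mice F1, F3, M1 and M3. The median AT2 cell of a mouse held between 9434 and 15384 UMIs in the CS group and between 11565 and 14220 in the RA group, and the AT2 cells of a mouse together held between about 1035330 and 6421690 UMIs. The labels and the sex-linked transcripts did not match in the CS group. AT2 cells of C2 and C5, labelled male, held Xist at 3.66 and 4.67 transcripts per 10,000 and Ddx3y at 0.0038 and 0.00104. AT2 cells of D2 and D5, labelled female, held Xist at 0.0415 and 0.00808 and Ddx3y at 0.523 and 0.565. The 4 RA mice matched their labels, and since all 4 CS mice go against theirs, no comparison can be made without them. The exposure labels are not touched by this check. F1 stood apart in club cell transcripts: its median AT2 cell held 35.6 Scgb1a1 transcripts per 10,000, where the median was 0 in the other 7 mice. Barcodes were shared between libraries for 17 AT2 cells, none of which was an AT2 cell in both.

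Values below are transcripts per 10,000 UMIs of a cell, averaged over the AT2 cells of a mouse, and n counts mice. The AT2 markers were high in the annotated cells. Sftpc, which encodes surfactant protein C (chromosome 14, 70520949 to 70524081, GRCm38), stood at 1180 ± 105 (SD, n = 8) in AT2 cells, and the next of the 31 cell types with at least 50 cells was club cells at 6.16. Lamp3 (chromosome 16, 19653378 to 19706375) stood at 13.9 ± 1.18 (SD, n = 8), with 0.0937 in the next type, smooth muscle cells. Sftpa1, which encodes surfactant protein A (chromosome 14, 41131782 to 41136452), stood at 247 in AT2 cells and at 21.2 in club cells. Markers of other types were low but not all at 0. The AT1 marker Ager was 8.24 in AT2 and 165 in AT1 cells, and Hopx was 0.388 and 73.0. Club cell Scgb1a1 was 48.5 in AT2 and 3986 in club cells. Summed over 8 endothelial markers, CS mice ranged from 1.27 to 2.94 and RA mice from 1.01 to 2.75. Over 8 immune markers the ranges were 1.32 to 2.11 and 1.46 to 1.78, and over 8 mesenchymal markers 0.118 to 0.251 and 0.10 to 0.398. Over 6 ciliated cell markers they were 1.03 to 2.18 and 0.843 to 1.81, over 5 club cell markers 27.6 to 69.5 and 33.2 to 84.8, and over 6 alveolar macrophage markers 0.239 to 0.620 and 0.239 to 1.26. No marker of these 6 lists was at 0 in every mouse. The tested members of these lists with an unadjusted p under 0.05 were Esam, an endothelial marker, and Aldh1a1, a club cell marker, both with higher means in CS. At least 2 markers of 1 other class (endothelial, immune, mesenchymal or ciliated) were found in 154 AT2 cells (8.19%), mostly endothelial (93 cells). The club cell and alveolar macrophage lists and the haemoglobin genes were not part of this screen.

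The genes with the largest ratio of AT2 cells to any other type describe what the annotated cells hold. They were ranked among genes with at least 1 transcript per 10,000, and since cell types were named from expression, no test belongs to them. After Sftpc and Lamp3 came Slc34a2, the sodium-phosphate cotransporter of the apical AT2 membrane, at 54.2 with 0.671 in club cells. Hc, which encodes complement component C5, stood at 13.2 with 0.180 in club cells. S100g, a calcium-binding protein, stood at 16.8 with 0.336, and Cxcl15, the mouse chemokine lungkine, at 70.2 with 3.61, both with club cells next. Lgi3 was at 4.86 with 0.212 in AT1 cells. Tinag (1.84), Cst8 (1.27), Mlc1 (2.19), Nrn1 (2.80), Prmt8 (1.05) and Acoxl (5.61) completed the named genes, with the unnamed loci Gm39094 (2.19) and Gm43085 (5.12). Over the 8 mice, Tinag ranged from 0.960 to 2.61 and Mlc1 from 2.01 to 2.43.

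**Figure D1:**
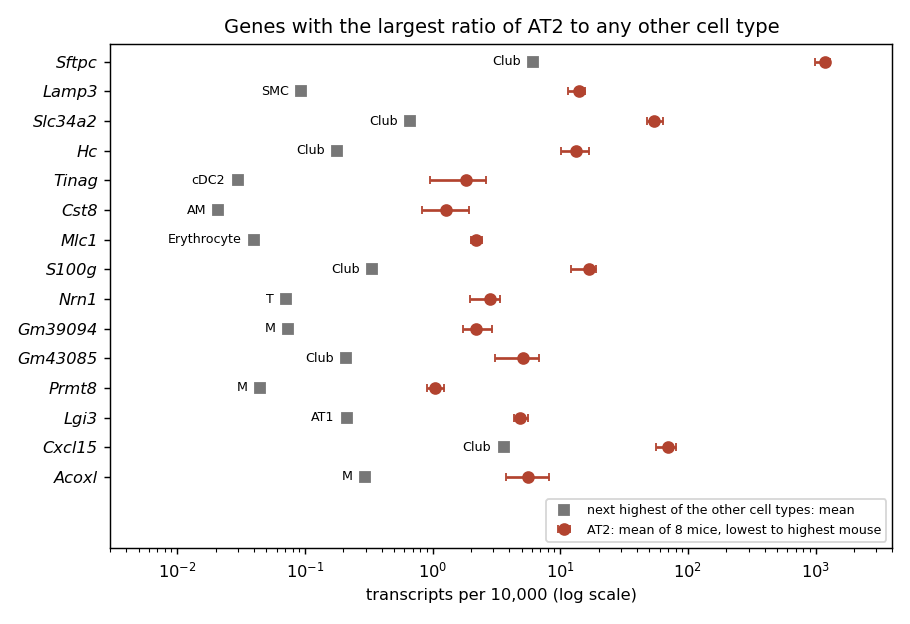
Levels of the 15 genes with the largest ratio between AT2 cells and the next cell type, in transcripts per 10,000 on a log axis. Red points are the mean of 8 mice with bars from the lowest to the highest mouse, and grey squares are the mean of the next highest type, named beside them. Sftpc stands at 1180 in AT2 cells and 6.16 in club cells.

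AT2 cells of 1 mouse differed among themselves in how much surfactant RNA they held. In F3, the mouse with the most AT2 cells, the 10th percentile, median and 90th percentile of Sftpc per cell were 815, 1252 and 1624 transcripts per 10,000. In D5 they were 508, 1038 and 1417. Sftpa1 ran from 145 to 372 between the same percentiles in F3, with a median of 257. Scd1, which encodes a desaturase that makes monounsaturated fatty acids, spread wider, from 9.89 to 78.3 in F3 around a median of 32.1. Lyz2, the lysozyme of AT2 and myeloid cells, ran from 127 to 398.

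**Figure D2:**
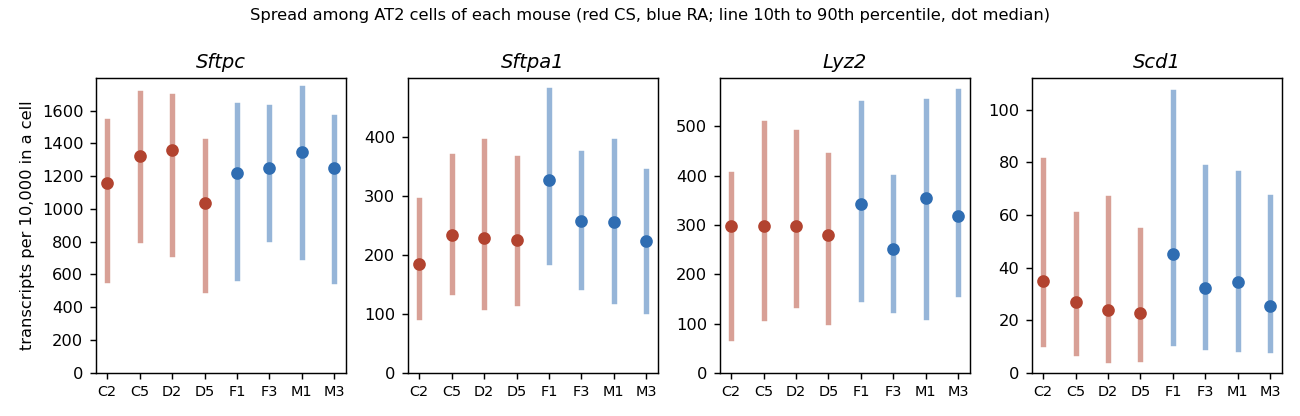
Transcripts per 10,000 in single AT2 cells of each mouse for Sftpc, Sftpa1, Lyz2 and Scd1. Dots are the median cell and lines run from the 10th to the 90th percentile, with CS mice in red and RA mice in blue. The lines of all 8 mice overlap for each of the 4 genes.

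The ratio of the variance to the mean over cells, taken within each mouse and then as the median over mice, shows which genes vary most. Over the 1429 genes with a mean of at least 1, its median was 1.76. Scgb1a1 came first at 1205, which is the club cell secretoglobin, followed by the haemoglobin gene Hbb-bs at 308 and the second lysozyme gene Lyz1 at 213. Sftpc was at 140, Lyz2 at 70.3, Sftpa1 at 40.9 and Scd1 at 20.7. Malat1 (88.2), mt-Rnr2 (56.6), Gm42418 (54.1), Gm23935 (53.4), Peak1 (41.8), S100a6 (25.7), Retnla (18.6) and Tmsb4x (18.2) were the others of the first 15. Without the 154 cells that held endothelial, immune, mesenchymal or ciliated markers, the value was 1221 for Scgb1a1, 196 for Hbb-bs and 201 for Lyz1. As club cell and haemoglobin genes were not screened, these values cannot show how far mixing with club cells or erythrocytes adds to the spread. Lyz1 was high in a minority of cells of some mice: the median cell of M1 held 1.65 and the 90th percentile 127, while in M3 these were 2.08 and 5.87. Haemoglobin was carried by few cells. Hba-a2 was found in 8 of the 116 AT2 cells of C2, which together held 92.2 UMIs of it, and in none of the 71 cells of M3.

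The share of AT2 cells was compared next, as CS mice gave fewer of them. Among epithelial cells, AT2 cells made up 18.2%, 15.7%, 18.5% and 16.3% in C2, C5, D2 and D5, and 28.1%, 37.7%, 17.2% and 13.7% in F1, F3, M1 and M3. The groups overlap, since the lowest value of all is that of an RA mouse. The means were 17.2% ± 1.40 in CS against 24.2% ± 10.9 in RA mice (SD, n = 4 per group, p of the exact two-sided permutation test = 0.371). The smallest p that 4 mice against 4 can give is 0.0286. Among non-immune cells, the share was 5.13%, 4.99%, 5.09% and 3.73% in the CS mice and 6.04%, 11.1%, 5.81% and 4.45% in the RA mice, with means of 4.74% ± 0.672 and 6.85% ± 2.91 (SD, n = 4 per group, p of the exact two-sided permutation test = 0.114). Within lanes, the share was lower in the CS mouse in 4 of 4 by this measure, and in 3 of 4 by the share of epithelial cells. Lanes did not pair the mice, so these counts are a description and not a paired comparison. Without RA mouse M3, which had the fewest AT2 cells, the difference in non-immune share was -2.91 percentage points and no CS mouse reached the lowest RA mouse (exact two-sided permutation p = 0.0286, the smallest that 4 mice against 3 can give). Without F3, which had the most AT2 cells, it was -0.70 (exact permutation p = 0.257), and the difference for AT2 cells as percent of epithelial cells was -2.52 in place of -7.02 percentage points. Cells were dissociated before counting, and shares of recovered cells cannot be told apart from how well cells came out of the tissue.

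Between CS and RA mice, 9032 genes found in at least 10% of AT2 cells of either group entered the limma test, which used log2 of the mean with 1 added. None passed an adjusted p of 0.05 (0%), so the differences given for this comparison are values of genes that did not pass. The unadjusted p was under 0.05 for 382 genes with a higher mean in CS (4.23%) and 289 with a lower one (3.2%). All 4 CS mice lay above all 4 RA mice for 223 genes (2.47%) and below for 190 (2.1%). Of the tested genes, 530 had reached 10% of cells only in the group with the higher mean, 98 of them with an unadjusted p under 0.05. The median log2 difference over all genes was 0.00. Depth per AT2 cell overlapped between the groups, at 11704 ± 2665 UMIs in CS against 12801 ± 1289 in RA mice (SD, n = 4 per group, p of the exact two-sided permutation test = 0.486).

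Genes of antigen presentation on MHC class I had higher means in CS. B2m, the light chain of every class I molecule (chromosome 2, 122147686 to 122153083), was 10.4, 9.86, 11.6 and 8.76 in C2, C5, D2 and D5 and 6.44, 5.89, 6.53 and 7.57 in F1, F3, M1 and M3. All 4 CS mice lie above all 4 RA mice. The means were 10.1 ± 1.17 and 6.61 ± 0.703 (SD, n = 4 per group), which is 0.55 on the log2 scale (standard error 0.117, limma adjusted p = 0.358). Tapbp, which encodes tapasin and bridges class I molecules to the peptide transporter (chromosome 17, 33915899 to 33929292), was 1.38, 1.32, 1.46 and 1.39 in the CS mice and 0.997, 1.15, 0.966 and 0.948 in the RA mice. H2-T23, the non-classical class I molecule Qa-1b (chromosome 17, 36029773 to 36032855), was 0.877, 0.917, 1.18 and 1.04 against 0.504, 0.701, 0.740 and 0.727. Neither gene overlaps between the groups, and both had an adjusted p of 0.471. Tapbp was also higher in AT1 cells, at 2.71 in CS and 1.65 in RA mice (log2 difference 0.49, limma adjusted p = 0.00782). Over 17 cell types, AT2 cells included, CS mice lay above all RA mice in 7 for Tapbp and in 3 for B2m. H2-K1, the classical heavy chain with the highest level, was 20.4, 19.4, 23.1 and 19.2 in CS and 16.6, 15.4, 15.7 and 17.7 in RA mice, again without overlap (log2 difference 0.31, standard error 0.110, adjusted p = 0.609). H2-D1, the other classical heavy chain, overlapped at 11.8 ± 1.25 and 10.7 ± 0.980 (SD, n = 4 per group).

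The list of class I and peptide loading genes had 10 members tested. All 10 had a log2 difference above 0, where 4757 of all 9032 genes did, with a median of 0.14. The unadjusted p was under 0.05 for 5 of them in the direction of CS and for 0 in the other, and 3 had CS mice above all RA mice. Over all genes tested, these shares were 4.23%, 3.2% and 2.47%. Besides B2m, Tapbp and H2-K1, the 5 included Psmb8, an immunoproteasome subunit (1.06 ± 0.221 against 0.769 ± 0.0715; SD, n = 4 per group), and Erap1, which trims peptides (log2 difference 0.08). Without D5 and F1 the count was 4 of 10, where 299 of 8849 genes had a higher mean at that threshold. H2-T23 is not on the list. The B2m and H2-T23 promoters are printed because their genes did not overlap between groups and held a motif in the 250 bases before the start. The motif, searched on both strands, was GAAANNGAA, the core bound by interferon regulatory factors. Of 9 matched genes (the list with H2-T23), 3 held it, and the other was Erap1, whose mice overlapped. Tapbp and H2-K1 did not overlap between groups either and held no match. B2m holds the motif 139 bases and H2-T23 123 bases before the RefSeq start. For H2-T23, the GENCODE gene span given above reaches past the RefSeq start and includes the motif, so it lies before the start in RefSeq only. The motif is in 7.13% of 32851 promoters of that length (RefSeq, GRCm38.p6), and capitals mark it. A match describes the letters and was not tested as a site.
B2m, chr2:122147437-122147686, plus strand: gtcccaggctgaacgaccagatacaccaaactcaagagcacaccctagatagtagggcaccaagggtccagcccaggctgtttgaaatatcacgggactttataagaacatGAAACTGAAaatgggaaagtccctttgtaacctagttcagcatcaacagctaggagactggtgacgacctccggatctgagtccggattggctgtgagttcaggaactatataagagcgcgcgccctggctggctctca
H2-T23, chr17:36032702-36032951, minus strand: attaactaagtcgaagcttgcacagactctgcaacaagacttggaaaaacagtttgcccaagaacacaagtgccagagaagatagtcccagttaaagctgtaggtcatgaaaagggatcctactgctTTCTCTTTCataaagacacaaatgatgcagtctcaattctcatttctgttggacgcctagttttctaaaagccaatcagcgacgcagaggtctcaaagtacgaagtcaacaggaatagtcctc

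MHC class II is carried by mouse AT2 cells at lower levels than by professional antigen-presenting cells. Its 7 tested genes all had a log2 difference above 0, with a median of 0.31, and none had an unadjusted p under 0.05 or groups that did not overlap. The size rests on F1: without it the median was 0.08 and the ratio of the summed levels was 1.07 in place of 1.24. H2-Aa was 10.9, 11.9, 14.1 and 10.8 in CS and 4.01, 9.35, 12 and 11.5 in RA mice, and H2-Ab1 was 6.93, 7.47, 9.37 and 7.80 against 2.48, 6.21, 7.81 and 7.21. F1 is the lowest mouse for both genes, as for Cd74, the invariant chain that guides class II molecules, whose values were 44.2 to 56.5 in CS and 23.9 to 49.8 in RA mice. Ciita, which drives class II transcription, was 0.206 ± 0.0532 and 0.143 ± 0.0596 (SD, n = 4 per group). Of 8 tested interferon-stimulated genes, 0 had an unadjusted p under 0.05. Ly6e was 8.88 ± 0.957 and 8.26 ± 1.65, Ifi27 2.04 ± 0.245 and 1.70 ± 0.221, and Bst2 0.747 ± 0.172 and 0.583 ± 0.0862 (SD, n = 4 per group).

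Among tested genes of the aryl hydrocarbon receptor pathway, Cyp1b1 was the 1 with CS mice above all RA mice. It encodes a cytochrome P450 that oxidises polycyclic aromatic hydrocarbons, and it is a classical target of the aryl hydrocarbon receptor (AHR), the sensor of such compounds. It lies on chromosome 17 from 79701537 to 79715061. Its values were 0.0864, 0.0812, 0.138 and 0.0961 in C2, C5, D2 and D5 and 0.0203, 0.0243, 0.0251 and 0.0142 in F1, F3, M1 and M3. The lowest CS mouse lies above the highest RA mouse, and the ratio of the means was 4.79. These values rest on 14.9, 19.9, 29.9 and 22.8 UMIs in 12, 15, 23 and 22 cells of the CS mice, and on 8.95, 14.99, 6.97 and 1.99 UMIs in 8, 14, 6 and 2 cells of the RA mice. The log2 difference of 0.11 (standard error 0.0200, adjusted p = 0.285) is small because 1 was added to each mean. Cyp1b1 passed the limit of 10% of cells through the CS mice, which makes its place among the tested genes depend on the group where it is high. In AT1 cells, Cyp1b1 was 0 in the CS mice and at most 0.00437 in an RA mouse, and in club cells it was 0.298 and 0.211 with overlapping mice. Of the 17 types with at least 20 cells in every mouse, 3 had CS mice above all RA mice, which were AT2, goblet and general capillary cells.

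Other AHR genes did not share this pattern. Of 8 listed genes, 5 were tested, and the 3 besides Cyp1b1 and Aldh3a1 had an unadjusted p above 0.05. Cyp1b1 and Aldh3a1 each entered the test only through the group where it is high: Cyp1b1 was found in 10.2% of CS and 2.55% of RA cells, and Aldh3a1 in 5.11% and 10.7%. Without D5 and F1 neither reached 10% of cells, so neither was tested. Aldh3a1, an aldehyde dehydrogenase, was 0.0507, 0.0221, 0.0532 and 0.0762 in CS and 0.121, 0.0944, 0.0962 and 0.0768 in RA mice. These groups are set apart only by 0.0762 in D5 against 0.0768 in M3. The M3 value rests on 6.97 UMIs in 6 cells, and the CS values on 3.94 to 14.9 UMIs per mouse. Tiparp, which acts as a feedback inhibitor of AHR, was 0.970 ± 0.245 and 0.923 ± 0.0594 (SD, n = 4 per group). Cyp1a1 and Ahrr were not tested, and each was found in at most 6 cells of a mouse. The promoter of Cyp1b1 is printed because the gene did not overlap between groups. It holds the AHR core motif GCGTG once in the 250 bases before its start, 76 bases upstream, read on the other strand and marked by capitals. Of the 6 list members with a promoter in RefSeq, 5 hold the motif, which 28.2% of 32851 promoters also do.
Cyp1b1, chr17:79715062-79715311, minus strand: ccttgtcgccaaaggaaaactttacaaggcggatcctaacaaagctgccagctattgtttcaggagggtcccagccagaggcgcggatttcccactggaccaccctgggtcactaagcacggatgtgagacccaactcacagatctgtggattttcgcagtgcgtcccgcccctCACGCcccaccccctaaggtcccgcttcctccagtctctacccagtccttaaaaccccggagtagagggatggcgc

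**Figure D3:**
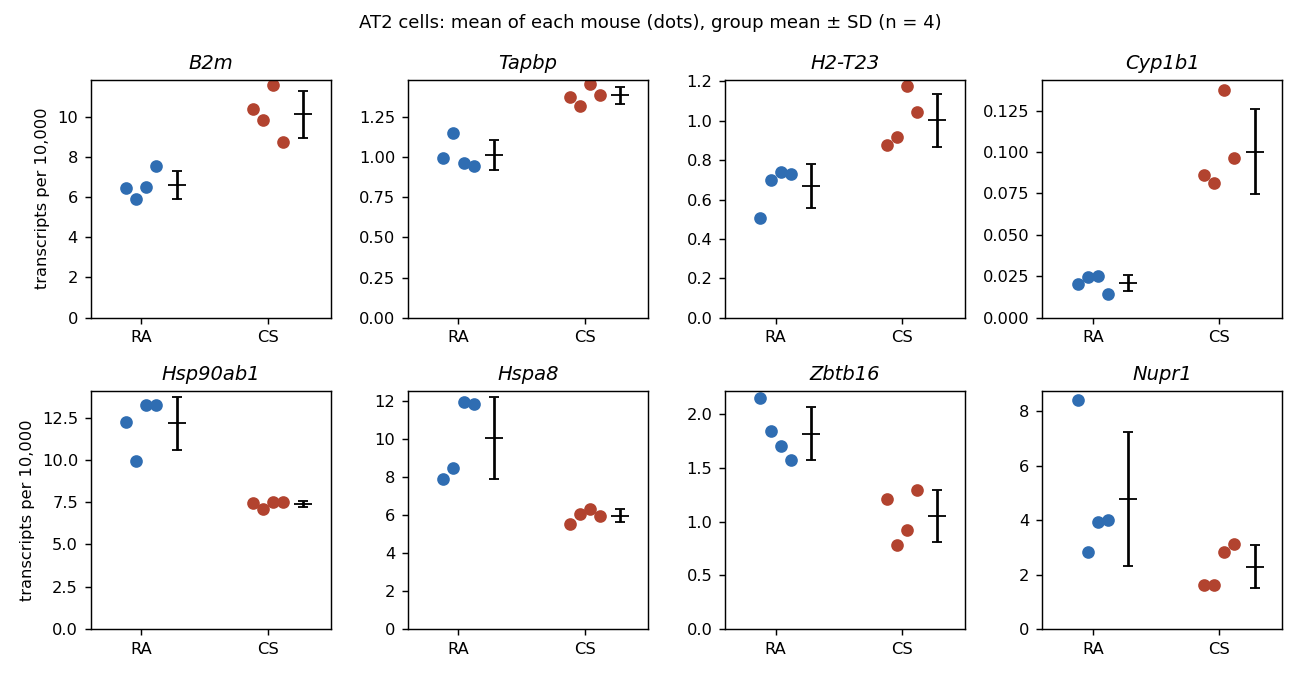
Transcripts per 10,000 in AT2 cells for 8 genes, 1 dot for each mouse (RA blue, CS red), with the group mean and SD in black (n = 4). CS and RA mice do not overlap for any of the 8 genes but Nupr1, where CS mouse D5 at 3.11 lies above RA mouse F3 at 2.83.

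Of 17 cytosolic and mitochondrial chaperones, 13 had a lower mean in CS, and none passed the adjusted test. Hsp90ab1, the constitutive cytosolic HSP90 (chromosome 17, 45567775 to 45573271), was 7.44, 7.12, 7.49 and 7.54 in the CS mice and 12.2, 9.94, 13.3 and 13.3 in the RA mice. The CS mice were close to each other and all below the RA mice. The log2 difference was -0.64 (standard error 0.115), with the smallest unadjusted p among genes with a mean of at least 1 and lower in CS, and an adjusted p of 0.285. Hspa8, the constitutive HSC70 that folds and routes client proteins (chromosome 9, 40800984 to 40810087), was 5.51, 6.06, 6.32 and 5.96 against 7.92, 8.49, 11.9 and 11.8, or -0.65 on the log2 scale (standard error 0.139, adjusted p = 0.358). Of 17 cytosolic and mitochondrial chaperones tested, 8 had an unadjusted p under 0.05 with a lower mean in CS, 0 with a higher one, and 4 had CS mice below all RA mice. Over all genes tested, these shares were 3.2%, 4.23% and 2.1%. The 8 were Hsp90ab1, Hspa8, Hspb1 (1.54 ± 0.377 against 2.73 ± 1.08), the HSP90 cochaperones Fkbp4 (2.02 ± 0.220 against 2.60 ± 0.252; SD, n = 4 per group), Ahsa1, Chordc1 and Stip1, and the mitochondrial Hspd1. Without D5 and F1 the count was again 8 of 17, where 654 of 8849 genes passed that threshold in either direction. In the other 4 the mean was higher in CS: the stress-induced Hspa1a was 6.10 ± 2.95 and 4.10 ± 1.28 and Hspa1b 4.26 ± 1.73 and 2.899 ± 1.01 (SD, n = 4 per group), and Hspa4 (0.867 and 0.851) and Bag3 (0.733 and 0.715) were nearly level. CS and RA mice overlapped for Hspa1a and Hspa1b. Over 17 cell types of the same mice, AT2 cells included, mice did not overlap and CS was below RA in 12 for Hsp90ab1 and in 13 for Hspa8.

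Chaperones of the endoplasmic reticulum, which fold secreted proteins such as surfactant proteins, were 17, and 4 of them had an unadjusted p under 0.05 with a lower mean in CS. Over all genes tested, that share was 3.2%. Sdf2l1 was 0.178, 0.190, 0.176 and 0.114 in CS and 0.223, 0.329, 0.319 and 0.293 in RA mice, without overlap. Creld2 was 0.416 ± 0.106 and 0.615 ± 0.0799 (SD, n = 4 per group), and Calr and Pdia6 were the other 2. Hspa5, the main HSP70 of that compartment, was 4.79 ± 0.463 and 5.56 ± 0.537, and Hsp90b1 4.61 ± 0.286 and 5.44 ± 0.579 (SD, n = 4 per group). Of 10 tested genes of the integrated stress response, the programme set off when translation initiation is held back, 2 had an unadjusted p under 0.05 with a lower mean. Nupr1, a stress-induced chromatin protein, was 1.62, 1.63, 2.82 and 3.11 in CS and 8.40, 2.83, 3.92 and 3.99 in RA mice, with overlap of D5 and F3 only. Asns, which makes asparagine and was tested only through the RA mice (11.9% of cells, against 6.52% in CS), was 0.0704, 0.0475, 0.0320 and 0.0902 against 0.198, 0.0799, 0.110 and 0.126. Atf3 was 2.84 ± 0.472 and 2.88 ± 1.01 (SD, n = 4 per group).

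The surfactant programme itself had small differences. Sftpc was 1088, 1291, 1267 and 987 in C2, C5, D2 and D5 and 1165, 1228, 1269 and 1145 in F1, F3, M1 and M3, which overlap fully. Sftpb, needed to spread surfactant lipid, was 109, 99.3, 100 and 102 in CS and 119, 119, 108 and 119 in RA mice, or -0.18 on the log2 scale (standard error 0.0712, adjusted p = 0.649). Sftpa1 was 196, 242, 236 and 230 against 328, 260, 254 and 227. All 4 surfactant protein genes had a log2 difference below 0, and 2 of them, Sftpb and Sftpa1, had an unadjusted p under 0.05, which neither had without D5 and F1. The Sftpc difference turned to 0.013 without D5. Lamp3 was 15.5, 14.7, 13.8 and 14.5 in CS and 11.5, 13.8, 14.2 and 13.2 in RA mice. Of 10 lamellar body and processing genes, 2 had an unadjusted p under 0.05, both with lower means. Prdx6, whose product has phospholipase activity on surfactant lipid and reduces lipid peroxides, was 6.29, 5.44, 5.70 and 4.81 against 8.46, 6.75, 6.70 and 6.85, without overlap. Ctsh, a protease of surfactant protein processing, was 7.61 ± 0.437 and 12.4 ± 6.01 (SD, n = 4 per group), with F1 at 21.2. Slc34a2 was 56.4 ± 6.56 and 52.0 ± 3.13, and Napsa 24.4 ± 1.90 and 26.1 ± 1.94 (SD, n = 4 per group).

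Lipid synthesis supplies the phospholipid of surfactant. Of 19 fatty acid and phospholipid genes tested, 1 had an unadjusted p under 0.05, Srebf1, the transcription factor of fatty acid synthesis (0.83 ± 0.0381 in CS and 1.01 ± 0.115 in RA; SD, n = 4 per group). Scd1 was 32.5 ± 5.73 and 41.3 ± 8.09, and the elongase Elovl1 14.2 ± 1.86 and 11.9 ± 1.56 (SD, n = 4 per group). Of 16 genes of cholesterol synthesis and uptake, 1 had a higher mean at an unadjusted p under 0.05. It was Sqle, the squalene epoxidase, at 0.998, 0.796, 0.804 and 0.677 in CS and 0.492, 0.617, 0.606 and 0.443 in RA mice, without overlap. Hmgcs1, an earlier enzyme of that pathway, was 2.23 ± 0.551 and 2.21 ± 0.604, and Idi1 1.82 ± 0.150 and 1.60 ± 0.203 (SD, n = 4 per group).

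Of 14 AT2 transcription factors, 3 had an unadjusted p under 0.05 with higher means in CS, namely Foxp2 (1.35 ± 0.334 against 0.944 ± 0.217), Foxa2 (log2 difference 0.14) and Etv5, which acts in the maintenance of AT2 identity (6.08 ± 0.673 against 4.82 ± 0.862; SD, n = 4 per group). At that threshold, 4.23% of all genes tested had a higher mean in CS. Without D5 and F1 there was 1 AT2 transcription factor with a higher mean and 1 with a lower mean. Nkx2-1, the master factor of lung epithelium, was 3.39 ± 0.426 and 2.84 ± 0.486 (SD, n = 4 per group). Among 14 receptors and targets of growth factor and WNT signaling, 2 had a higher mean at an unadjusted p under 0.05. Id2 was 6.16, 6.41, 5.27 and 4.51 in CS and 3.92, 4.41, 4.09 and 4.22 in RA mice, without overlap, and Erbb3 was 0.585 ± 0.0738 and 0.460 ± 0.0577. Fgfr2, the main fibroblast growth factor receptor of these cells, was 6.36 ± 0.796 and 5.25 ± 0.802 (SD, n = 4 per group).

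Counterparts of genes that mark the human AT2B and AT2S cells of the study, which were chosen in human samples, gave few genes at an unadjusted p under 0.05. Of 7 tested AT2B markers, Etv5 and Sftpa1 had an unadjusted p under 0.05, in opposite directions, which neither had without D5 and F1, and Sftpd was 46.7 ± 2.73 and 48.6 ± 7.59 (SD, n = 4 per group). Of 6 tested AT2S markers, 0 had, with Foxp1 at 5.26 ± 0.852 and 5.95 ± 1.22 and Stat3 at 3.30 ± 0.435 and 3.2 ± 0.624 (SD, n = 4 per group). The median log2 difference was -0.03 for the first list and 0.04 for the second, and the first ranged from -0.05 to 0.03 and the second from 0.00 to 0.08 with 1 mouse left out. Of 24 counterparts of genes named in human COPD AT2B cells, 1 had a higher mean at an unadjusted p under 0.05, Mgst1 (6.29 ± 0.441 and 5.23 ± 0.521; SD, n = 4 per group), and 1 a lower one, Nupr1. The study reports both MGST1 and NUPR1 as decreased in human COPD AT2B cells, so Mgst1 went the other way. For mouse AT2 cells, the study also reports Nupr1 as decreased and Cd74 as increased with CS. Its Wilcoxon rank-sum test took single cells as the unit. With mice as the unit, the limma adjusted p was 0.591 for Nupr1 and 0.757 for Cd74. Of the 24, 18 had a log2 difference above 0. Without D5 and F1, 0 had a higher mean at that threshold and 1 a lower one. Of 12 counterparts of genes at COPD risk loci, 2 had a lower mean, Npnt (0.790 ± 0.0835 and 1.03 ± 0.164) and Tns1 (1.13 ± 0.171 and 1.37 ± 0.143; SD, n = 4 per group).

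Antioxidant enzymes had 25 tested members, of which 4 had a higher mean in CS at an unadjusted p under 0.05 and 0 a lower one. Over all genes tested, these shares were 4.23% and 3.2%. Sod1, the cytosolic superoxide dismutase (chromosome 16, 90220754 to 90226329), was 2.82, 2.41, 2.04 and 2.32 in CS and 1.73, 1.60, 1.76 and 1.98 in RA mice, without overlap (log2 difference 0.29, standard error 0.0835, adjusted p = 0.526). Sod2, its mitochondrial counterpart, was 1.24, 1.46, 1.30 and 1.37 against 1.2, 1.16, 1.1 and 0.924, also without overlap. Mgst1 and Gstm1, enzymes of glutathione conjugation, were the other 2. The list leaves out Prdx6, given above with the lamellar body genes, which had a lower mean in CS at that threshold, without overlap. Gclc, which limits glutathione synthesis and is a target of NRF2, was 10.8 ± 3.28 and 10.6 ± 1.06, and Txn1 6.73 ± 0.385 and 6.18 ± 0.741 (SD, n = 4 per group). The metallothionein Mt1, which binds zinc and other metals (chromosome 8, 94179082 to 94180327), was 7.51, 6.06, 7.66 and 11.7 in CS and 4.84, 2.45, 3.87 and 5.88 in RA mice, or 0.82 on the log2 scale (standard error 0.216, adjusted p = 0.502). Mt2 was 1.89, 1.5, 1.84 and 3.04 against 1.33, 0.527, 1.17 and 1.29. All CS mice lie above all RA mice for both, by a small gap.

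Of 74 nuclear genes of oxidative phosphorylation, 5 had a higher mean at an unadjusted p under 0.05 and 0 a lower one, and 59 had a log2 difference above 0, with a median of 0.07. Over all 9032 genes tested, 382 (4.23%) had a higher mean at that threshold, and 4757 had a log2 difference above 0. Without D5 and F1, 12 of 75 listed genes tested had a higher mean at that threshold, where 299 of 8849 genes did. Uqcr11, of complex III, was 3.15 ± 0.426 and 2.40 ± 0.336, and Atp5mpl, of the ATP synthase, 1.87 ± 0.254 and 1.46 ± 0.161 (SD, n = 4 per group). Cox8a and Atp5e had the highest levels of the list. Cox8a was 6.83 ± 0.339 and 6.17 ± 0.305, and Atp5e 5.87 ± 1.13 and 5.02 ± 0.425 (SD, n = 4 per group). Of 76 cytosolic ribosomal protein genes, 4 had a higher mean at an unadjusted p under 0.05 and 63 had a log2 difference above 0, with a median of 0.07 (0.03 without F3). Rps26 was 7.26 ± 0.630 and 5.74 ± 0.589, and Rpl41 17.7 ± 2.21 and 14.1 ± 2.16 (SD, n = 4 per group). Many ribosomal protein genes have processed copies in the genome, and counts of single members are uncertain for that reason.

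Clock genes whose products follow the daily cycle had 8 tested members, all with a log2 difference above 0, and 5 had an unadjusted p under 0.05, of which Bhlhe41 and Ciart entered the test only through the CS mice, where they are high. At that threshold, 4.23% of all genes tested had a higher mean in CS. Dbp, a clock output transcription factor, was 2.17, 1.78, 1.46 and 0.925 in C2, C5, D2 and D5 and 0.408, 0.566, 0.761 and 1.23 in F1, F3, M1 and M3, with overlap of D5 and M3 only. Tef was 0.671 ± 0.226 and 0.409 ± 0.108, and Per2 0.487 ± 0.109 and 0.327 ± 0.108 (SD, n = 4 per group). Of 5 genes of the opposite phase, Npas2 (4.26% of CS and 12.5% of RA cells) and Nfil3 (8.37% and 12.6%) entered the test only through the RA mice, where they are high, so their sign gives no support. The other 3 had a log2 difference below 0, and Arntl, the partner of CLOCK, was 0.0656, 0.101, 0.217 and 0.218 against 0.416, 0.272, 0.244 and 0.174. Dbp had a higher mean in CS in 17 of 17 types. The labels give no time of day at harvest. Of 10 glucocorticoid target genes, 2 had a higher mean at an unadjusted p under 0.05, Mt1 and Mt2, and 1 a lower one, Zbtb16. Zbtb16, a zinc finger transcription factor induced by glucocorticoids (chromosome 9, 48654297 to 48836222), was 1.21, 0.778, 0.923 and 1.30 in CS and 2.15, 1.85, 1.70 and 1.58 in RA mice, or -0.46 on the log2 scale (standard error 0.0921, adjusted p = 0.285). Tsc22d3 was 0.935 ± 0.0955 and 0.984 ± 0.0919, and Errfi1 8.30 ± 1.54 and 9.10 ± 2.08 (SD, n = 4 per group).

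Lists tied to injury and change of cell state gave few such genes. Of 9 AT1 genes tested, 1 had a lower mean at an unadjusted p under 0.05, the water channel Aqp5 (4.28 ± 0.450 and 5.46 ± 0.692; SD, n = 4 per group), though not without D5 and F1, and of 10 genes of injury and transitional states, 0 had. Krt8, a keratin of the transitional state between AT2 and AT1 cells, was 2.64 ± 0.629 and 2.92 ± 0.714 (SD, n = 4 per group), and Krt18 3.37 ± 0.609 and 3.59 ± 0.807. Among 14 p53 targets and growth arrest genes, Gadd45g had a lower mean, at 1.41, 1.40, 1.82 and 1.32 in CS and 2.08, 2.30, 1.96 and 2.06 in RA mice, and Mdm2 a higher one, at 0.418 ± 0.0446 and 0.333 ± 0.0216. Without D5 and F1 there were 5 with a higher mean and 1 with a lower one, where 299 of 8849 genes had a higher mean at that threshold. Cdkn1a, which encodes p21, was 1.79 ± 0.363 and 2.32 ± 0.845 (SD, n = 4 per group). Of 12 cell division genes, 2 were tested: Stmn1 was 1.37, 0.753, 1.69 and 1.28 against 2.39, 1.71, 1.79 and 2.81, and Pcna was 0.601 ± 0.0691 and 0.586 ± 0.0405 (SD, n = 4 per group).

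Of 17 immediate-early genes, 1 had an unadjusted p under 0.05, Nr4a1 (1.60 ± 0.459 in CS and 0.980 ± 0.166 in RA; SD, n = 4 per group). Jun was 10.5 ± 2.93 and 10.1 ± 1.49, and Egr1 7.35 ± 1.51 and 6.17 ± 0.869. Of 9 NF-kB targets, Nfkb2 had a lower mean (0.167 ± 0.0624 and 0.259 ± 0.0554), and of 11 airspace defence genes and of 10 ion and fluid transport genes, 0 passed that threshold. Lcn2, which binds bacterial siderophores, was 15.4, 19.1, 17.8 and 35.5 in CS and 17.8, 17.9, 13.9 and 9.33 in RA mice, with D5 highest. Lyz2 was 290 ± 16.1 and 321 ± 42.0, and Cxcl15 68.3 ± 8.89 and 72.0 ± 6.79 (SD, n = 4 per group). Of 10 genes of iron handling and lipid peroxide defence, 1 had a higher mean, the zinc and iron importer Slc39a8 (2.45 ± 0.290 and 1.95 ± 0.287), though not without D5 and F1. Of 37 proteasome subunits, Psmb8 had a higher and Psmc5 a lower mean (0.524 ± 0.0351 and 0.638 ± 0.0715; SD, n = 4 per group).

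**Figure D4:**
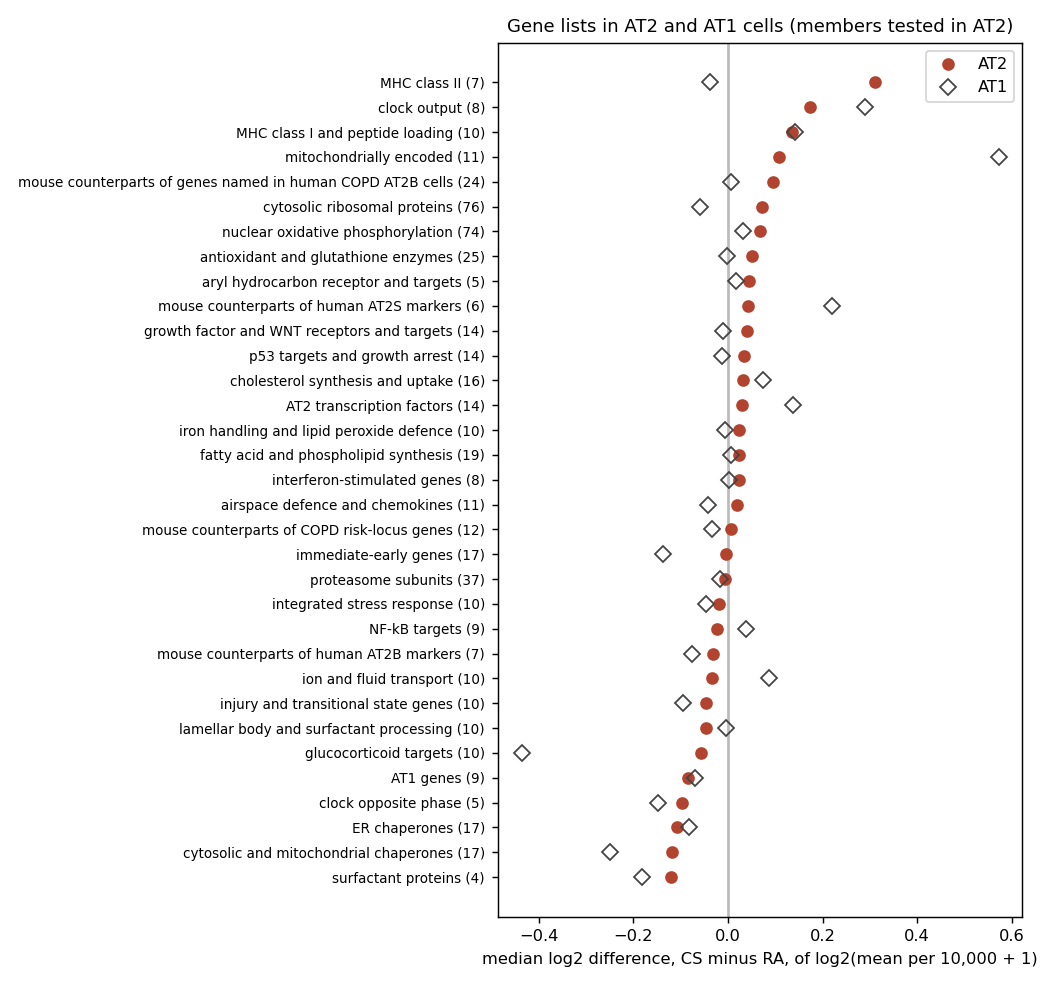
Median log2 difference (CS minus RA, on log2 of the mean per 10,000 plus 1) over the tested members of each gene list shown, in AT2 cells (red dots) and AT1 cells (open diamonds, over members tested there). Not shown are cell division (-0.24 in AT2 cells, 2 tested), the reporters, the sex-linked checks and the markers of other classes. The number of members tested in AT2 cells is in brackets. MHC class II stands at 0.31 in AT2 cells, which falls to 0.08 without RA mouse F1, and mitochondrially encoded genes at 0.11 in AT2 (0.00 without CS mouse C2) and 0.57 in AT1 cells.

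Among the genes ranked by p outside these lists, Naaladl2 was 1.55, 1.36, 1.22 and 1.86 in CS and 0.630, 1.11, 0.611 and 0.789 in RA mice. Cirbp, a cold-inducible RNA-binding protein, was 0.913, 1.12, 1.23 and 0.991 against 0.679, 0.757, 0.745 and 0.614. Atpif1, an inhibitor of the mitochondrial ATP synthase, was 3.50, 2.80, 3.51 and 3.07 against 2.08, 1.96, 2.66 and 2.34. Tbcel (1.31 and 0.911), Grina (1.13 and 0.769) and the linker histone H1f0 (1.66 and 1.18) also had CS mice above all RA mice. The haemoglobin gene Hba-a2, a product of erythroid cells, was 0.735, 0.872, 1.76 and 0.680 against 0.131, 0.104, 0.479 and 0, and in erythrocytes it stood at 288. It too entered the test only through the group where it is high, found in 10.2% of CS and 6.04% of RA cells. Its mean was higher in CS in 15 of 17 types, and the part of RNA from erythrocytes in its AT2 value was not tested. On the lower side, Auts2 was 0.282, 0.472, 0.429 and 0.639 in CS and 2.23, 1.26, 0.865 and 1.17 in RA mice. Tspan11, a tetraspanin, was 1.76, 1.61, 1.87 and 2.23 against 3.47, 2.63, 2.88 and 2.92. Ramp1, a subunit of the calcitonin gene-related peptide receptor, was 1.93, 1.78, 1.71 and 1.61 against 2.96, 2.35, 2.42 and 2.18. Dpp9 (0.709 and 1.03) and Pdlim2 (0.736 and 1.12) also had CS mice below all RA mice, while Rasl11a (0.596 and 1.02) overlapped. The adjusted p of these 13 genes lay between 0.285 and 0.502.

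The reporters were read as a check of the cells. eGFP stood at 60.6, 59.4, 76.2 and 73.9 in CS and 63.3, 78.4, 82.7 and 75.3 in RA mice, with overlap. tdTomato, which recombined cells no longer make, was 0.0208, 0.0256, 0.0373 and 0.0247 in CS and 0.0808, 0.0987, 0.123 and 0.0485 in RA mice, so that all CS mice lay below all RA mice (exact two-sided permutation p = 0.0286). It was found in too few cells to be among the genes tested. These values rest on 5.76 to 8.72 UMIs in each CS mouse and on 5.80 to 67.9 in each RA mouse.

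Whether AT2 cells differ from AT1 cells in their CS difference was tested gene by gene, as the AT2 minus AT1 difference of each mouse. Of 10102 genes, 95 had an adjusted p under 0.05 (0.94%), 35 with a positive and 60 with a negative value. With a pseudocount of 0.1 the count was 36, of which 16 were positive. For 88 of these 95 genes, the difference was larger in AT1 than in AT2 cells, and 72 passed in AT1 cells alone while 0 passed in AT2 cells alone. Of the 95, 21 were found in too few AT2 cells to be tested there, which with 1 added sets their AT2 value near 0. Among the 72 genes tested in both cell types, the difference was larger in AT1 cells for 67, and its median size was 0.06 in AT2 and 0.44 in AT1 cells. AT2 and AT1 cells come from the same mice, and the count was 44 without C2, 35 without C5, 35 without D2, 47 without D5 and 52 without M3. There were 538 AT1 cells in CS and 437 in RA mice.

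Glucocorticoid targets were called in both directions in AT1 cells, 4 of 9 tested there lower and 2, Mt1 and Mt2, higher, where 0.992% and 1.39% of the 8873 genes tested in AT1 cells were called lower and higher (log2 differences 1.82 and 0.36, against 0.82 and 0.56 in AT2 cells). Among those that fell there, some stood near 0 in AT2 cells. Tsc22d3, which encodes the glucocorticoid-induced leucine zipper, ranged from 0.867 to 1.07 in CS and from 0.876 to 1.07 in RA mice in AT2 cells, and from 1.38 to 1.68 and from 3.99 to 8.02 in AT1 cells. The log2 difference was -0.04 in AT2 and -1.23 in AT1 cells, and these differed by 1.19 (standard error 0.178, adjusted p = 0.0148). Errfi1, a feedback inhibitor of the EGF receptor, had -0.11 in AT2 and -0.93 in AT1 cells (adjusted p = 0.00640). Zbtb16 had -0.46 and -1.19 (adjusted p = 0.0147), so that its AT2 value was lower too but by less. Klf15, a further glucocorticoid-induced factor that is not on the list, had -0.14 and -0.74 (adjusted p = 0.0243). The call for Tsc22d3 was lost without C5 (adjusted p = 0.0543) or D2 (0.051), and that for Klf15 without any 1 of the 4 CS mice (0.0534 to 0.0796). Of the 10 listed targets, 3 differed between the cell types. The median over the list was -0.06 in AT2 (-0.0033 without M3) and -0.44 in AT1 cells.

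Mitochondrially encoded genes showed the opposite sign. Of 11 tested, none had an unadjusted p under 0.05 in AT2 cells, while mt-Nd1, mt-Nd2, mt-Nd4, mt-Nd5 and mt-Cytb, which encode subunits of complexes I and III, differed between the cell types. mt-Nd4 ranged from 48.1 to 57.0 in CS and from 47.5 to 56.0 in RA mice in AT2 cells, and from 33.6 to 42.1 and from 18.8 to 23.8 in AT1 cells. Its log2 difference was -0.01 in AT2 and 0.73 in AT1 cells, which differed by -0.75 (standard error 0.0696, adjusted p = 0.00360). mt-Nd2 had -0.18 and 0.61 (adjusted p = 0.00640) and mt-Cytb 0.11 and 0.75 (adjusted p = 0.0107). With a pseudocount of 0.1, none of these 5 genes passed, at adjusted p from 0.0632 to 0.173, while their differences stayed between -0.82 and -0.58. The share of mitochondrial transcripts is also a measure of cell quality, and in AT2 cells its median per cell was 3.75% ± 0.672 in CS against 3.18% ± 0.286 in RA mice (SD, n = 4 per group, p of the exact two-sided permutation test = 0.171). That share was not compared in AT1 cells, where the larger differences lay.

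For 7 of the 95 genes the difference was larger in AT2 than in AT1 cells. For 2 of those named, AT1 cells held almost no transcript, which with 1 added sets the AT1 value near 0, so that the call restates an AT2 difference that had not passed by itself: Auts2 (0.0476 in CS and 0.0261 in RA AT1 cells) and Tspan11 (0.00416 and 0.0195). Ramp1 was also low in AT1 cells, at 0.138 and 0.102. Auts2 had -0.68 in AT2 and 0.03 in AT1 cells, where it was at most 0.0886 in a mouse (adjusted p = 0.0305), and the call was lost without any 1 of the CS mice, F3 or M3 (0.0535 to 0.0869). Naaladl2 had 0.49 and -0.22 (adjusted p = 0.0151), Sat1, the spermidine acetyltransferase, 0.27 and -0.15 (adjusted p = 0.0349), Tspan11 -0.47 and -0.02 (adjusted p = 0.0379) and Ramp1 -0.33 and 0.05 (adjusted p = 0.0353). Msrb1, which reduces oxidised methionine, had 0.21 in AT2 and -0.20 in AT1 cells (adjusted p = 0.00640). The other genes with the smallest p were Cnn3 (0.01 in AT2 and 0.70 in AT1), Hecw1 (0.00 and 0.56), which AT2 cells hardly held (0.00691 in CS and 0.00615 in RA mice, and 0.121 and 0.117 for Cnn3), mt-Nd5 (0.16 and 0.73), Ubb (-0.17 and -0.71), AU021092 (0.08 and -0.49) and Gdpd1 (-0.01 and -0.59). For the chaperones, the test of the difference between cell types was not passed: Hsp90ab1 had -0.64 and -0.89 (adjusted p = 0.236) and Hspa8 -0.65 and -1.01 (adjusted p = 0.272). For B2m the values were 0.55 and 0.30 (adjusted p = 0.161), and for Mt1 0.82 and 1.82 (adjusted p = 0.0636). The Mt1 call depended on the settings, as Mt1 passed with a pseudocount of 0.1 (difference -2.91, adjusted p = 0.000356), without D5 (0.0441) and without F3 (0.0351). AT1 cells held Mt1 at 2.94 in CS and 0.112 in RA mice.

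**Figure D5:**
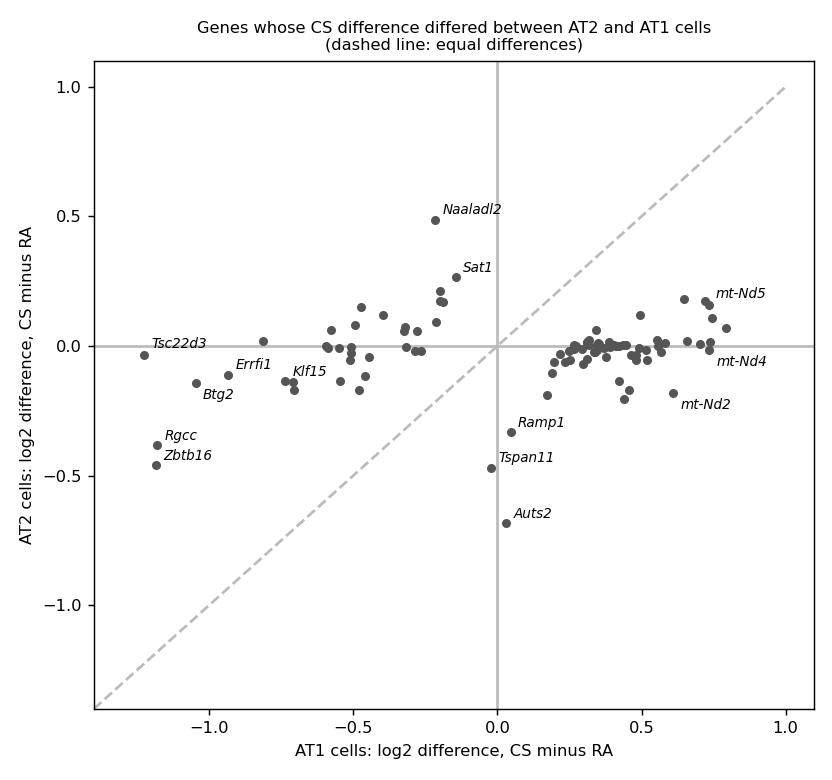
Log2 difference between CS and RA mice in AT1 cells (horizontal axis) and AT2 cells (vertical axis) for the 95 genes whose difference differed between both cell types at an adjusted p under 0.05. Most points lie near 0 on the AT2 axis, and Auts2, Tspan11, Ramp1 and Naaladl2 lie near 0 or on the other side on the AT1 axis.

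Against club cells, the secretory cells of the airway, 6 of 11968 genes had a CS difference that differed at an adjusted p under 0.05 (0.0501%). For Erbb4 and Hs6st3, AT2 cells held almost no transcript (0.0188 and 0.0253 for Erbb4, 0.0310 and 0.0436 for Hs6st3), so with 1 added their AT2 value could only be near 0 and the call restates the club cell difference. Erbb4, a receptor of neuregulins, had -0.01 in AT2 and -0.70 in club cells, which held 0.377 in CS against 1.24 in RA mice (adjusted p = 0.0170). Hs6st3, a heparan sulphate sulphotransferase, had -0.02 and -0.93 (adjusted p = 0.0498), and Il13ra1, a receptor subunit for IL-13, 0.04 and -0.24 (adjusted p = 0.0270). Ppargc1a, a coactivator of mitochondrial genes, had -0.05 and 0.35 (adjusted p = 0.0397), and Slc35f3 -0.06 and 0.18 (adjusted p = 0.0397). Prdx1, a peroxiredoxin, was the gene with the larger difference in AT2 cells, at 0.19 and -0.15 (adjusted p = 0.0170), where AT2 cells held 6.79 in CS and 5.84 in RA mice. With a pseudocount of 0.1, 2 genes passed, and with 1 mouse left out in turn between 0 and 5 did: 0 without F1, without F3, without M1 or without M3, and 1 without C2 or without D5.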

How the data were processed

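Single-cell RNA was measured in lungs of 4 CS and 4 RA mice, 1 library each. According to the study's methods, the authors aligned reads with STAR 2.7.3a (the submitters' processing notes also name STARsolo) to GRCm38.p6 with GENCODE M22 and the transgene sequences, counted spliced and unspliced UMIs, and removed estimated free RNA with SoupX. The deposited matrix therefore holds estimated counts that need not be whole (1.28% were whole within 1e-06). The deposited cell table gives whole counts of detected genes, the percent of mitochondrial transcripts and the authors' cell type, which had been named from clusters by marker genes. No doublet caller was run here, and 1025 cells that the authors had marked as multiplets and 7 marked as cycling were left out. No cell of the 17 with a shared barcode was removed. Over the cells kept, the deposited matrix summed to between 31094700 and 52753500 UMIs per mouse (rounded).

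Mice were mapped to exposure from the labels, and each cell to its mouse from the cell table. Each library is 1 animal. Each cell was scaled to 10000 UMIs and averaged over the AT2 cells of a mouse. Genes found in at least 10% of AT2 cells of either exposure were tested with limma 3.58.1 (R 4.3.3, empirical Bayes with trend) on log2 of the mean plus 1, so that differences of low genes are understated, with Benjamini-Hochberg adjustment over all tested genes and a threshold of 0.05. The AT2 minus AT1 and AT2 minus club differences of each mouse were tested in the same way, over types with at least 20 cells per mouse. Single values had an exact two-sided permutation test over all assignments of mice to groups, which are 70 for 4 against 4 and fewer with 1 mouse left out. On simulated data for AT2, CS against RA (9032 genes), 95 of 100 genes changed by 1 and 98 of 100 changed by 2 on the log2 scale were recovered, with 5 false calls. The changed genes were drawn only from genes with a mean log2 value above 1. Of the tested genes, 1523 had a mean of at least 1 transcript per 10,000 in either exposure. Recovery of lower genes, and of changes smaller than 1 on the log2 scale, was not simulated. The AT2 differences between CS and RA mice given above, such as -0.65 for Hspa8, were smaller than 1. Other steps used Python 3.11.15, numpy 2.4.6, pandas 2.3.3, scipy 1.17.1 and matplotlib 3.10.9.

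The cells and gene lists were chosen with earlier results of these data known. Genes were named by rule: the 3 AT2 markers, the 2 highest and the 2 of smallest p in each list, the 10 of smallest p in each direction with a mean of at least 1, the 15 most specific and the 15 most variable genes, the 5 of smallest p in each direction between AT2 and AT1 cells, Nupr1, Cd74, the reporters and sex-linked checks. Other genes named (such as H2-D1, Sod2, Sftpb, Klf15, Sat1, Asns, Hspa5 and the 6 genes of the club cell comparison) were chosen after their values were seen. Promoters are the 250 bases before each RefSeq start (GRCm38.p6), without chromosome 18, and gene positions are from GENCODE. Hsp90ab1, Hspa8 and Sftpc have no entry among these promoters. Lanes did not pair the mice: deviations of the 2 mice of a lane correlated at -0.0983 to 0.0415. Alternatives changed the pseudocount, gene filter, scaling, averaging, cells, lane or sex terms and mice, 1 at a time, and 1 more, without D5 and F1, was added after seeing the data.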

Additional observations from a re-analysis of the deposited data

Results flagged for a closer look

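In 4 of 146 groups of 4 mice, 1 mouse lay far from the other 3 relative to the range, where chance gives about 1 in 20, or 7.3 groups. AT2 cells were 3.732% of non-immune cells in CS mouse D5, with 4.99% to 5.13% in the other CS mice. The sum over the surfactant protein genes was 1535 transcripts per 10,000 in RA mouse M3, which had the fewest AT2 cells, and 1660 to 1672 in the other RA mice. The sum over alveolar macrophage markers was 1.261 in RA mouse F1 and 0.239 to 0.262 in the other RA mice. H2-T23 was 0.5041 in F1 and 0.701 to 0.740 in the other RA mice.

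The difference between CS and RA mice itself differed between AT2 and AT1 cells for 95 genes by limma at an adjusted p under 0.05. The log2 difference in AT2 minus that in AT1 cells was -0.749 for mt-Nd4, -0.575 for mt-Nd5 and -0.791 for mt-Nd2, which encode complex I subunits. It was -0.696 for Cnn3, -0.557 for Hecw1, 0.535 for Ubb, 0.576 for AU021092, 0.823 for Errfi1, 0.412 for Msrb1 and 0.580 for Gdpd1. Between AT2 and club cells it differed for 6 genes, at 0.694 for Erbb4, 0.336 for Prdx1, 0.274 for Il13ra1, -0.399 for Ppargc1a, -0.241 for Slc35f3 and 0.914 for Hs6st3.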

How the results depend on the processing

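No gene passed between CS and RA mice in AT2 cells under any alternative but 1: with the labelled sex as a term, which the sex-linked transcripts contradict in the CS mice, 1 gene passed (Gm6210). Genes with an unadjusted p under 0.05 were 671, 441 with a filter at 25% of cells, 1313 with no filter (28065 genes tested) and 535 to 708 with 1 mouse left out. Of them, 56.9% had a higher mean in CS, 51.0% to 64.9% with 1 mouse left out and 45.7% without D5 and F1. Genes whose mice did not overlap were 413, and 1206 without D5 and F1, where 3 mice stand against 3. With a pseudocount of 0.1, genes that differed between AT2 and AT1 cells went from 95 to 36 and between AT2 and club cells from 6 to 2. With 1 mouse left out these were 35 to 87 and 0 to 5. The difference in the share of non-immune cells was -2.91 to -0.70 percentage points with 1 mouse left out, and for AT2 cells as percent of epithelial cells -10.5 to -2.52. The value of -2.91 was without RA mouse M3 (exact permutation p = 0.0286, the smallest that 4 mice against 3 can give). The Sftpc difference was -0.12 to 0.013 on the log2 scale with 1 mouse left out, and turned to 0.013 without D5. The causes were not tested. For 63 genes of the CS and RA comparison in AT2 cells, the other 1114 values under an alternative kept their direction and stayed above the adjusted threshold. Of the named genes in the AT2 minus AT1 test, Auts2 lost its call in 6 of 10 alternatives, Klf15 in 4, Tsc22d3 in 2, and Ubb and the 5 mitochondrially encoded genes in 1 (the pseudocount of 0.1), and in the AT2 minus club test Prdx1 lost it in 7 of 9, Slc35f3 and Ppargc1a in 9, Hs6st3 and Il13ra1 in 8 and Erbb4 in 4. Mt1 gained a call in 3 of 10. Replicate numbers followed accession order and pair no mice. Each lane held 1 CS and 1 RA mouse, and with lane as a replicate block, 0 genes passed and 588 had an unadjusted p under 0.05. Low genes such as Cyp1b1 and tdTomato rest on few UMIs per mouse.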
